A study of Homo sapiens with 3 samples.

Results

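RAB small GTPases are the largest family of RAS-related switch proteins. They were taken here as all genes whose symbol is RAB, a number and then at most 1 letter with an optional number. On the array, 60 of the 19699 genes with a named probe met this rule, and 56 of them gave a signal well above background on at least 1 array. RAB6D, RAB9B, RAB19 and RAB25 stayed below that limit throughout. In the RefSeq table, RAB6C, RAB40A, RAB44 and 9 pseudogenes also fit the rule but had no matched probe, so they were not analysed here.

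RAB proteins cycle between an active form bound to GTP and an inactive form bound to GDP, and a lipid tail anchors them in membranes. Each marks a particular membrane of the cell and, when active, recruits effectors such as tethers, motor adaptors and fusion factors. Activators load GTP and GTPase-activating proteins switch the RAB off. In the exocrine pancreas the family is best known for the traffic of secretory granules, in which RAB3D, RAB26 and RAB27 proteins take part. In cancer cells RAB proteins also route integrins, growth factor receptors and proteases to and from the surface.

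The cells were PANC-1, an established human pancreatic cancer line. There were 3 arrays, with 1 array for each of 3 groups. The groups were control cells without agent, cells given 20 µM cantharidin (CAN) and cells given okadaic acid (OA), for which the sample label also states 20 µM; treatment lasted 24 h. Both agents inhibit protein phosphatase 2A (PP2A), and the question was which transcripts differed from control under each. In bulk RNA, fewer cells of a type and less RNA per cell cannot be told apart. No result below has a replicate, so no test between groups was possible and the spread between cultures was not measured.

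Values are given as processed intensity, the brightness of a probe on its array. Differences are on the log2 scale, each signal first divided by the 75th percentile of its array (784 intensity units in control, 713 under CAN and 936 under OA), so a fold is not the plain ratio of the intensities printed beside it. A gene was called higher or lower at 1.5-fold. The lowest intensity well above background was 35.0 in control, 21.9 under CAN and 58.0 under OA. A gene dimmer than that on 1 array has only a bound there, written "at least". Among 999 probes printed as 10 spots, the median SD between spots was 0.07, 0.10 and 0.08 log2 units on the control, CAN and OA arrays, and it was 0.28, 0.30 and 0.29 for probes under an intensity of 100. Levels of different genes come from different probes and are not compared with each other.

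The 6 ductal epithelial markers KRT7, KRT8, KRT18, KRT19, EPCAM and MUC1 were well above background on all 3 arrays, as were the mesenchymal markers VIM, CDH2 and ZEB1, while FN1 was on none. Of 7 matched acinar and islet markers, 5 were well above background in control, with a summed intensity of 1864 in control, 1975 under CAN and 1893 under OA, and CPA1 and SST were on none. Of 7 leukocyte and endothelial markers, 6 were well above background on each array and PECAM1 on none. Their summed intensity was 5574 in control, 3860 under CAN and 13647 under OA. CD14, at 2535, 1838 and 11044, accounts for the higher sum under OA, while VWF had 1814, 958 and 1090. The part of this sum in the differences of RAB genes was not tested.

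**Figure D1:**
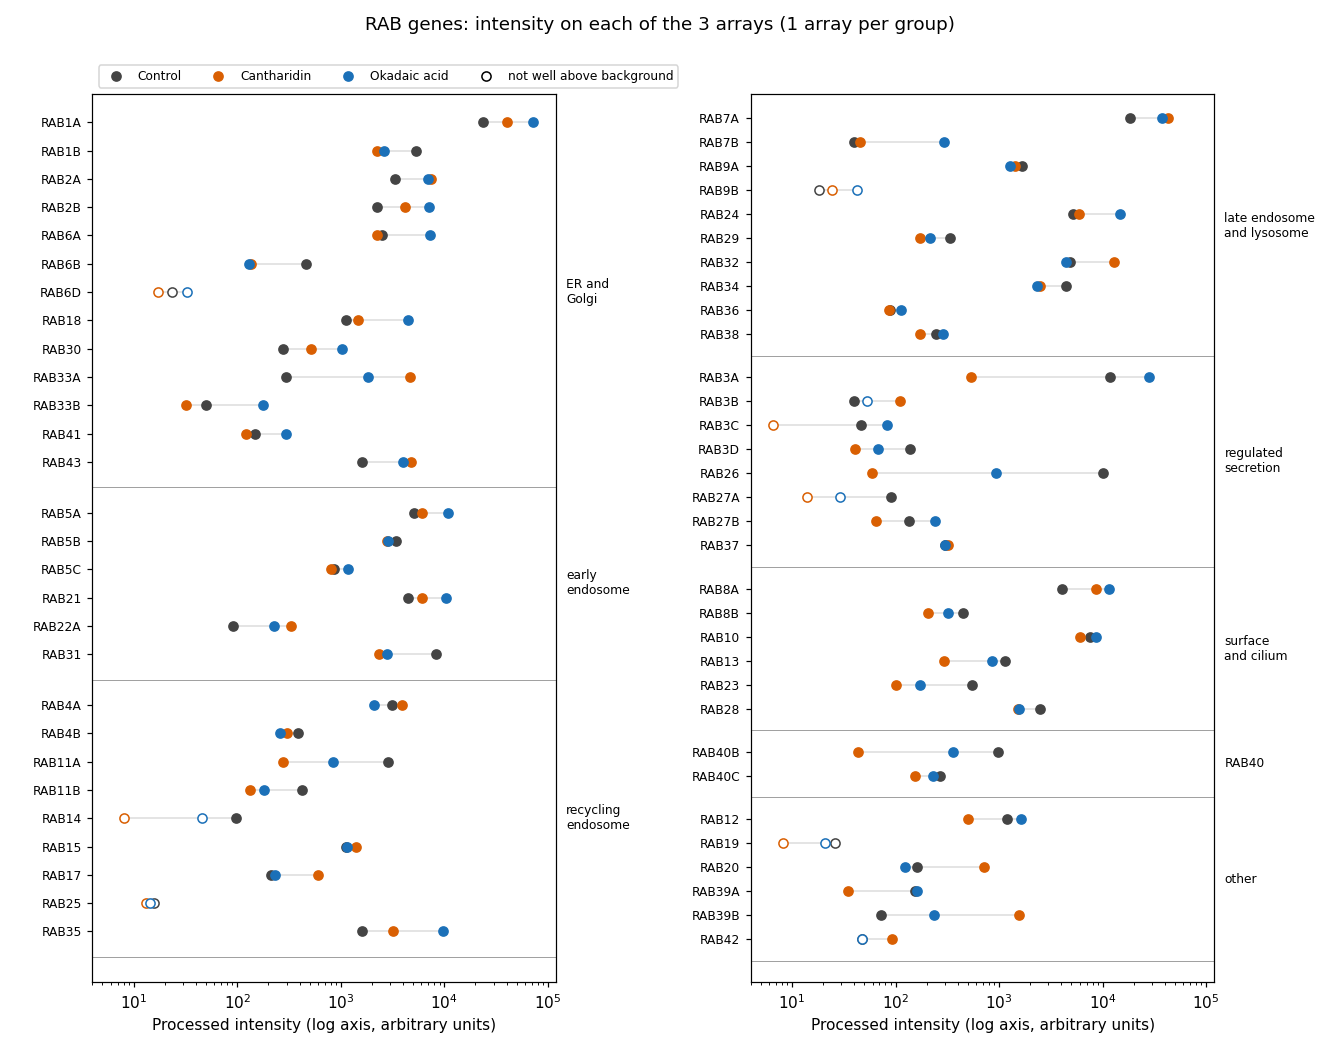
Processed intensity (log axis) of the 60 RAB genes on the control, CAN and OA arrays, 1 array per group, grouped by main role. Open circles mark signals not well above background. Positions are to be compared within a row only: RAB26 lies at 10040, 58.7 and 942 and RAB3A at 11729, 531 and 27854 on the 3 arrays.

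RAB genes differed from control in both directions under each agent. RAB26, RAB40B and RAB3A lay farthest below control under CAN and RAB39B and RAB33A farthest above it. Under CAN, 56 members could be compared. Of these, 17 were at least 1.5-fold higher, against 27.5% of all 16644 genes compared, and 21 were at least 1.5-fold lower, against 34.1% of all genes. As shares of the members this was 30.4% and 37.5%, close to the background, and 38 were called in either direction (61.6% of all genes). Of the 53 members measured on both arrays, 17 were higher and 18 lower, where 25.6% and 33.1% of all genes were. The median difference of the members was -0.11, and that of all genes -0.16.

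Under OA, 21 of 56 members were at least 1.5-fold higher, against 28.1% of 16166 genes, and 20 were at least 1.5-fold lower, against 28.8%. These were 37.5% and 35.7% of the members. In either direction 41 were called (56.9% of all genes). Over the 52 members measured on both arrays the counts were 21 and 18, where 28.1% and 27.1% of all genes were higher and lower. The median difference was -0.10 for the members and 0.01 for all genes, and the member median turned to 0.16 without scaling between arrays. The comparisons of CAN and of OA share the control array, so an error in a control signal would enter both.

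**Figure D2:**
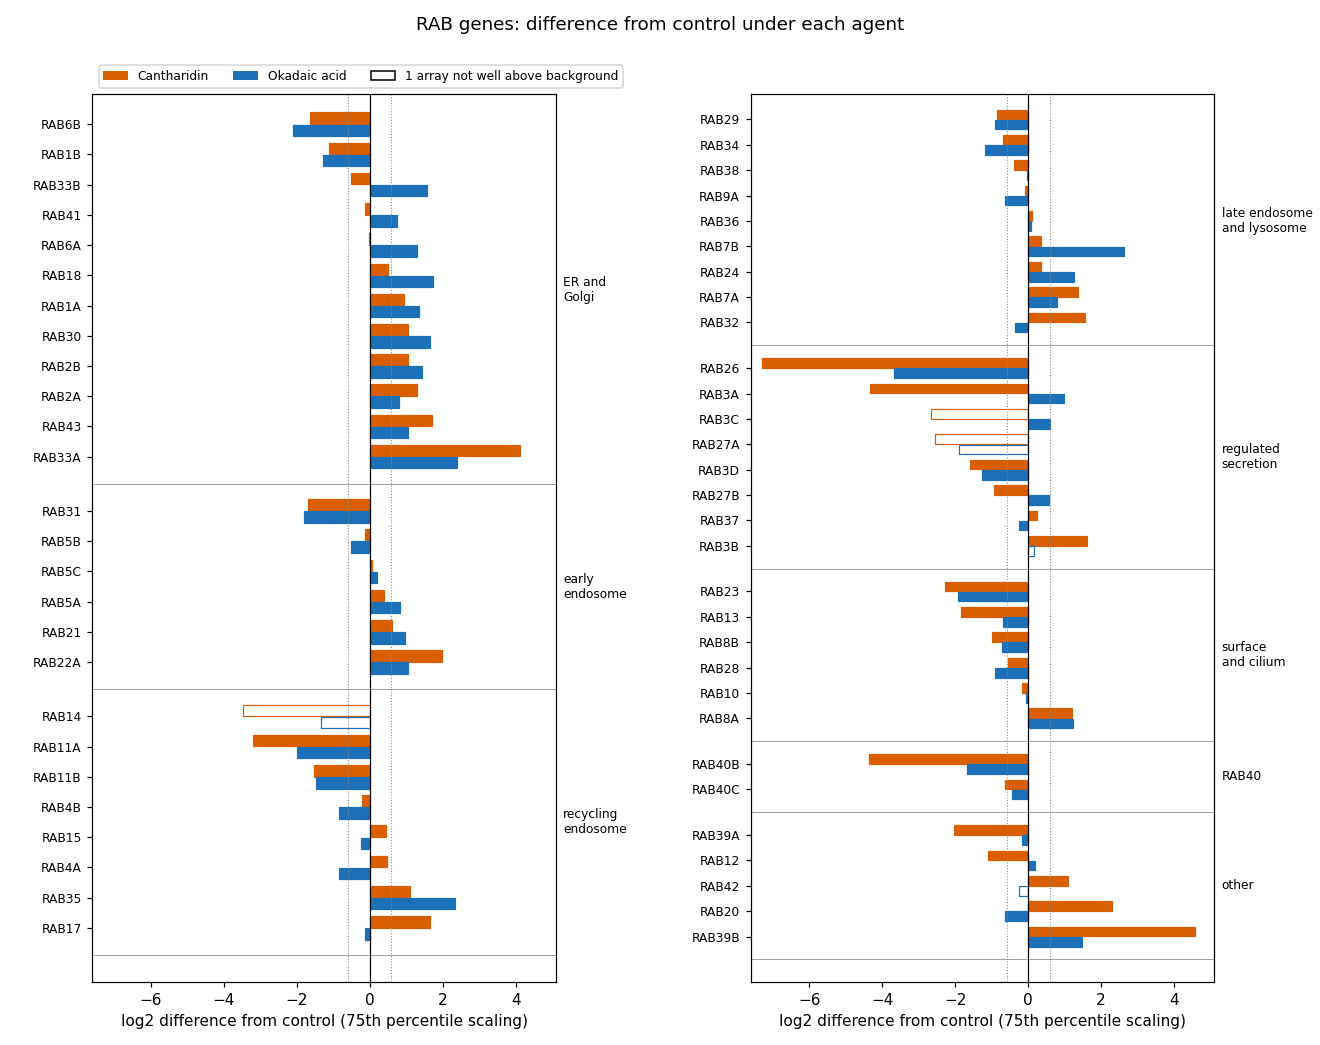
Difference from control (log2, after scaling to the 75th percentile) under CAN and OA for the 56 RAB genes compared, grouped by main role and sorted by the CAN value. Dotted lines mark 1.5-fold and open bars mark a dim signal on 1 array of the comparison. The bars span -7.28 (RAB26) to 4.56 (RAB39B) under CAN and -3.67 (RAB26) to 2.62 (RAB7B) under OA.

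The RAB genes of regulated secretion included RAB26, the member farthest below control under each agent. Under CAN, 6 of 8 were lower, 1 was higher and 1 was within 1.5-fold. RAB3C and RAB27A, not well above background under CAN, entered this count through their control signal alone. Of the 6 measured on both arrays, 4 were lower and 1 higher under CAN, where 33.1% and 25.6% of all genes were. With so few genes this is only a description. Under OA, 3 of the 8 were lower, 2 were higher and 3 were within 1.5-fold. Of all genes, 34.1% were lower under CAN, and 28.8% were lower and 28.1% higher under OA, so the OA shares of 37.5% and 25.0% lay near the background. RAB26, a RAB of secretory granules that is needed for granule maturation in secretory cells, had intensities of 10040 in control, 58.7 under CAN and 942 under OA. This was 156-fold lower under CAN and 12.7-fold lower under OA. Over 10 alternatives that gave a value, the difference lay between -7.64 and -5.99 log2 units under CAN and between -3.79 and -3.41 under OA. The OA limits came from median scaling and no scaling, which move all genes alike. RAB26 has 1 probe detected on all arrays, so the filter, floor and probe-median alternatives could not change its values. The ranges are therefore a weak check.

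RAB3A, the RAB of synaptic and hormone-containing vesicles, separated the agents. Its intensity was 11729 in control, 531 under CAN and 27854 under OA. It was 20.1-fold lower under CAN and 1.99-fold higher under OA. Set directly against each other, the OA array was 39.9-fold above the CAN array, the widest gap between the agents among members measured on both arrays. A single probe measured RAB3A, so no second probe checks this.

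Other members of this group gave weaker signals. RAB3D, the main RAB3 form on zymogen granules of the exocrine pancreas, had intensities of 137, 41.0 and 67.8 and was 3.04-fold lower under CAN and 2.42-fold lower under OA. RAB27A, which docks secretory granules and exosome-bearing compartments at the plasma membrane, had 90.7 in control and was not well above background on either treated array. It was at least 3.76-fold lower under CAN and at least 1.86-fold lower under OA. RAB27B, its close relative, was measured on 10 spots with intensities of 135, 64.2 and 240. Its log2 difference was -0.93 under CAN and 0.58 under OA, the latter just inside 1.5-fold and not called. Its spot SD within an array was 0.15, 0.16 and 0.09 log2 units, which does not measure the spread between cultures.

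RAB3B was the member of the group that was higher under CAN. It had 39.7 in control, 111 under CAN and 53.1 under OA, and was 3.06-fold higher under CAN. Under OA it was not well above background, at least 2.50-fold below CAN. RAB3C lay near the floor in control, at 45.9, and was at least 1.91-fold lower under CAN and 1.51-fold higher under OA. The OA difference passed 1.5-fold in 6 of 9 alternatives, some of which could not change it. RAB37, a RAB of mast cell and insulin granules, was within 1.5-fold on its brighter probe under both agents. Its dimmer probe, at 48.1 in control, was not well above background on the treated arrays and was at least 1.66-fold lower under CAN, where the brighter one was 1.17-fold higher.

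The RAB genes of the endoplasmic reticulum (ER) and Golgi were mostly higher under OA, less so under CAN. Under OA, 10 of 12 compared were at least 1.5-fold higher and the other two, RAB1B and RAB6B, were lower. Under CAN, 6 were higher, 2 were lower and 4 were within 1.5-fold. Of all genes, 28.1% were higher under OA and 27.5% under CAN. The median difference of this group was 0.71 under CAN and 1.32 under OA, beside -0.16 and 0.01 for all genes. The role groups hold few genes and were drawn up with earlier results of these arrays known, so these counts are a description.

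RAB33A, a Golgi-linked RAB known from neurons and lymphocytes, was the member of the group most above control. It had 296 in control, 4660 under CAN and 1851 under OA, or 17.3-fold and 5.24-fold above control. RAB33B, a Golgi RAB that also binds an autophagy factor, had 49.5, 31.7 and 176. It was 1.42-fold lower under CAN, within the threshold, and 2.97-fold higher under OA. RAB43, which shapes the Golgi and its cargo flow, had 1617, 4817 and 3997 and was 3.28-fold and 2.07-fold higher. RAB30, also a Golgi RAB, had 274, 516 and 1022 and was 2.07-fold and 3.12-fold higher.

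RAB2A and RAB2B act between the ER and the Golgi. For RAB2B the intensities were 2235, 4216 and 7181, 2.08-fold and 2.69-fold above control. Its second probe gave 2.15-fold and 2.70-fold, nearly the same. RAB2A was 2.43-fold higher under CAN and 1.75-fold higher under OA. RAB18, a RAB of the ER and of lipid droplets, was 3.31-fold higher under OA. Under CAN its probes gave 1.42-fold and 2.66-fold, so the call there depended on the probe. RAB6A, which drives retrograde Golgi transport, was 2.44-fold higher under OA and differed by 1.02-fold under CAN. RAB41 was 1.66-fold higher under OA and 1.11-fold lower under CAN.

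RAB1A and RAB1B direct vesicles from the ER to the Golgi and share this role, yet their brighter probes lay on opposite sides of control. RAB1B had 5349, 2243 and 2619 and was 2.17-fold and 2.44-fold lower, while RAB1A was 1.90-fold and 2.54-fold higher. The dimmer probe of each gene did not pass 1.5-fold. For RAB1A it gave -0.38 under CAN, the opposite sign, and for RAB1B it gave -0.48 and -0.24. RAB6B, the neuronal form of RAB6, had 462, 136 and 129 and was 3.09-fold and 4.27-fold lower.

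Early endosome RAB genes were higher, within 1.5-fold or, for 1 gene, lower. Under CAN, 2 of 6 were higher and 1 was lower (33.3% and 16.7%), beside 27.5% and 34.1% of all genes. Under OA, 3 were higher and 1 was lower (50% and 16.7%), beside 28.1% and 28.8%. RAB22A, which sorts cargo from early endosomes to recycling tubules, had 92.0 in control, 328 under CAN and 225 under OA, 3.92-fold and 2.05-fold above control. RAB21, a RAB of integrin endocytosis, was 1.53-fold and 1.96-fold higher. RAB31, which links the trans-Golgi network and endosomes and is related to RAB22A, was the member that was lower. It had 8335, 2358 and 2826, 3.21-fold and 3.52-fold below control. Of the RAB5 forms, which drive early endosome fusion, RAB5A was 1.79-fold higher under OA. RAB5C was measured on 10 spots with 857, 807 and 1176, differences of 0.05 and 0.20. Its spot SD was 0.07, 0.06 and 0.07 log2 units. RAB5B stayed within 1.5-fold under both agents.

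Of 8 recycling RAB genes, 5 were called lower and 1 higher under OA, where 28.8% and 28.1% of all genes were. Under CAN 3 were called lower and 2 higher, shares of 37.5% and 25.0% near the 34.1% and 27.5% of all genes. Of the 7 measured on both arrays, 4 were lower and 1 higher under OA, and 2 were lower and 2 higher under CAN. RAB11A, the central RAB of the recycling endosome, had 2839 in control, 280 under CAN and 848 under OA. It was 9.22-fold lower under CAN and about 4-fold lower under OA. RAB11B had 420, 132 and 181 and was 2.90-fold and 2.77-fold lower, so both RAB11 genes lay below control on both treated arrays. RAB14, which connects the Golgi and endosomes, had 98.1 in control and was not well above background under either agent, at least 4.07-fold and at least 2.02-fold lower.

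RAB35, a RAB of rapid recycling and of actin at the plasma membrane, was higher instead. Its intensity was 1621 in control, 3163 under CAN and 9669 under OA, 2.15-fold and 5.00-fold above control. RAB17, a RAB of epithelial cells, was 3.11-fold higher under CAN and differed by 1.09-fold under OA. RAB4A and RAB4B, which act in fast recycling, were 1.78-fold and 1.79-fold lower under OA and within 1.5-fold under CAN. RAB15 was within 1.5-fold of control under both agents.

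Stretches before the start sites of RAB3A, RAB11A, RAB35 and RAB40B are shown as examples, picked after their values were seen, of a gene with opposite directions under the agents, a lower, a higher and a lower gene. RAB26 and RAB39B, with larger differences under CAN, had no entry in the table, nor had RAB33A. Each holds the 250 bases before the RefSeq start in GRCh38.p14, read 5′ to 3′ on the strand of the gene. Capitals mark GGGCGG on either strand, the core of the GC box that Sp1, named in the series title, can bind.
RAB3A, chr19:18204043-18204292, minus strand: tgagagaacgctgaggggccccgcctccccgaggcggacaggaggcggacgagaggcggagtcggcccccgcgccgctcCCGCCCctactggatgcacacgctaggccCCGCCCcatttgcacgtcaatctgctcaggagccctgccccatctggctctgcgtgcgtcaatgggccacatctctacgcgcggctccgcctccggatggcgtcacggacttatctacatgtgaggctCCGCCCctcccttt
RAB11A, chr15:65869241-65869490, plus strand: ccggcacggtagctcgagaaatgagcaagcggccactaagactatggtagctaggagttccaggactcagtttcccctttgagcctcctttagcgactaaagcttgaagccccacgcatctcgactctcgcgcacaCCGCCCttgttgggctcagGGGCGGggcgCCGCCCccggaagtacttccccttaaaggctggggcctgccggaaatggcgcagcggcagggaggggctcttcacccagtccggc
RAB35, chr12:120116754-120117003, minus strand: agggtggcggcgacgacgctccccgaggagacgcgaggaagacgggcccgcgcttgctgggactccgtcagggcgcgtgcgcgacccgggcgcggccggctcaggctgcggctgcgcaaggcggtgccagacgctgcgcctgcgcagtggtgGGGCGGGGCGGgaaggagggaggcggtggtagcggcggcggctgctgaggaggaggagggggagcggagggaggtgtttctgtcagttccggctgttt
RAB40B, chr17:82698699-82698948, minus strand: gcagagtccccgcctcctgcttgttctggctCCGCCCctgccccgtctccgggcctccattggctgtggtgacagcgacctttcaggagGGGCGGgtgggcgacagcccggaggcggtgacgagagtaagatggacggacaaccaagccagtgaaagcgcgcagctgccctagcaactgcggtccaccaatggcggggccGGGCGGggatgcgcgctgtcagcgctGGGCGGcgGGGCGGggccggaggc

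The GC box core was found 3 times before RAB3A, 3 before RAB11A, 2 before RAB35 and 5 before RAB40B. Whether the motif goes with the direction of a gene was not tested, and 4 picked examples cannot show it. None of the 4 windows held the other motifs searched. Of the 48 members with an entry in this table, 39 held the GC box core in the same window. This is a larger share than the 42.3% of all 27305 windows that held it, and the reason was not tested. The AP-1 core TGANTCA was in the windows of RAB3B and RAB5B (6.60% of all windows) and the CRE palindrome TGACGTCA in that of RAB25 (1.77%). The E-box CACGTG was in the windows of RAB4A, RAB5A, RAB21, RAB24 and RAB31 (6.49%). Both strands were searched, and a match is not a binding site. The remaining 12 members, RAB26 among them, had no entry.

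Of 9 late endosome and lysosome RAB genes, 2 were higher and 2 lower under CAN, or 22.2% each way beside 27.5% and 34.1% of all genes. Under OA 3 were higher and 3 lower, or 33.3% each way beside 28.1% and 28.8%. RAB7A, which delivers cargo to lysosomes, had 18287, 43081 and 37614, or 2.59-fold and 1.72-fold above control. RAB7B, a distinct gene of endosome-to-Golgi transport, had 39.7, 45.6 and 292 and was 6.15-fold higher under OA against 1.26-fold under CAN. Its control signal lay near the lowest detected intensity of 35.0. Over 10 alternatives its OA difference ranged from 1.27 to 3.14 log2 units, so the size of the fold is uncertain. RAB32, a RAB of lysosome-related organelles and mitochondria, was 2.95-fold higher under CAN and 1.29-fold lower under OA. RAB24, linked to autophagosomes, was 2.41-fold higher under OA. RAB29 and RAB34 were lower under both agents, by 1.80-fold and 1.86-fold for RAB29 and by 1.60-fold and 2.29-fold for RAB34. RAB9A was 1.57-fold lower under OA, and RAB36 and RAB38 were within 1.5-fold.

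Among RAB genes of transport to the surface and the cilium, RAB8A alone was higher. Under CAN, 1 of 6 was higher and 3 were lower (16.7% and 50%), beside 27.5% and 34.1% of all genes. Under OA, 1 was higher and 4 were lower (16.7% and 66.7%), beside 28.1% and 28.8%. With 6 genes these shares are only a description. RAB8A, which carries cargo to the plasma membrane and the primary cilium, had 4096, 8626 and 11462, 2.32-fold and 2.34-fold above control. RAB8B was 1.99-fold and 1.65-fold lower. RAB23, a negative regulator of Hedgehog signalling, had 544, 102 and 171 and was 4.85-fold and 3.79-fold lower. RAB13, a RAB of tight junctions, was 3.58-fold and 1.60-fold lower. RAB10, a RAB of exocytic carriers close to RAB8, was within 1.5-fold under both agents, at 1.12-fold and 1.04-fold. RAB28, a RAB of photoreceptor cilia, was within 1.5-fold under CAN, where its probes ranged from -0.56 to 0.08. It was 1.88-fold lower under OA, and all 3 of its probes were lower there by 1.88-fold to 2.69-fold.

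RAB40B, which carries a SOCS box and acts in a ubiquitin ligase, was among the members most reduced. It had 972 in control, 43.2 under CAN and 361 under OA, 20.4-fold and 3.21-fold below control. RAB40C was 1.57-fold lower under CAN and 1.37-fold lower under OA. RAB39B, a RAB studied mainly in neurons, was the member most above control under CAN. Its intensity was 72.2 in control, 1543 under CAN and 237 under OA, 23.5-fold and 2.75-fold above control. RAB39A had 154, 34.4 and 163, 4.06-fold lower under CAN and 1.13-fold lower under OA.

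RAB20, a RAB of phagosomes that hypoxia can induce, lay past 1.5-fold in opposite directions under the agents. It had 161 in control, 721 under CAN and 123 under OA, 4.94-fold higher under CAN and 1.56-fold lower under OA. The OA value passed 1.5-fold in 7 of 10 alternatives and the CAN value in all 10. The filter, floor and probe-median alternatives could not change these values, since RAB20 has 1 probe detected on all arrays. Their passes are therefore no separate check. RAB42 had 47.0 and 91.7 in control and CAN cells, 2.15-fold higher, and was not well above background under OA, at least 2.08-fold below CAN. RAB12 was 2.14-fold lower under CAN and differed by 1.14-fold under OA, where its dimmer probe, not well above background in control, was at least 2.15-fold higher.

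Genes that share a RAB number are close relatives in most cases, and 13 such subfamilies had at least 2 members compared with control. In 4 of them, members were called in opposite directions under CAN (RAB1, RAB3, RAB8 and RAB39), and in 4 under OA (RAB1, RAB3, RAB6 and RAB8). Of all genes, 27.5% were higher and 34.1% lower under CAN, and 28.1% and 28.8% under OA. At these shares unrelated genes can also be called in opposite directions, and how often was not counted. The RAB1 case rests on the brighter probes, as the dimmer probe of each gene did not pass 1.5-fold. The spread between the highest and the lowest member had a median of 1.67 log2 units under CAN and 1.64 under OA, with dim signals at their measured values. Under CAN, the differences from control of RAB39A and RAB39B lay 95.5-fold apart, those of RAB3A and RAB3B 61.5-fold and those of RAB33A and RAB33B 24.6-fold. These are gaps between changes, not between levels. Some rest on dim signals: RAB39A had 34.4 and RAB33B 31.7 under CAN, and RAB3B had 39.7 in control. Other subfamilies kept together: RAB2A and RAB2B were both higher, and RAB11A and RAB11B both lower, under each agent. Whether a probe also bound the transcript of a relative was not tested.

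**Figure D3:**
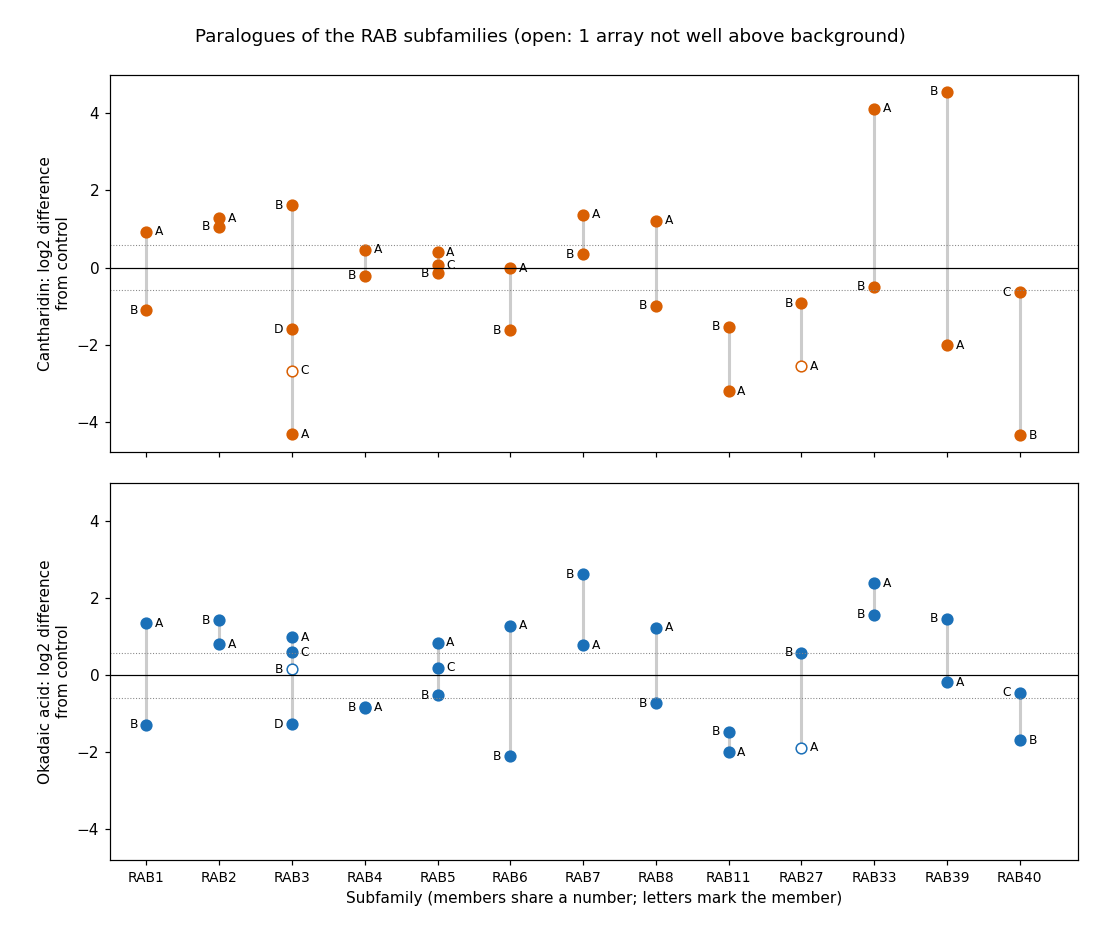
Difference from control (log2) of the members of 13 RAB subfamilies under CAN (top) and OA (bottom), on the same scale. Letters name the member, grey bars join the highest and lowest, and open circles mark a signal not well above background on 1 array. Under CAN, RAB39A (-2.02) and RAB39B (4.56) lie farthest apart.

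The agents were also set directly against each other, over 54 members. OA gave at least 1.5-fold higher signals than CAN for 17 (29.5% of 16200 genes) and at least 1.5-fold lower signals for 13 (22.3%). Of all genes, 51.8% were called in either direction, and of those measured on both arrays 30.4% were higher and 20.2% lower. Of the 51 members measured on both arrays, 16 were higher and 11 lower. Of the calls, 56.7% were higher, or 75.8% without scaling, with 25 higher and 8 lower. Among members measured on both arrays, RAB3A (39.9-fold), RAB26 (12.2-fold) and RAB40B (6.36-fold) were the members most above CAN, all of them far lower under CAN than in control. RAB39B (8.54-fold), RAB20 (7.72-fold) and RAB32 (3.81-fold) were the most below. RAB8A and RAB11B differed by 1.01-fold and 1.05-fold between the agents. With 1 array for each agent, such closeness does not show that the agents act alike.

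The proteins that switch, lipid-modify or read RABs were described by 4 fixed lists. Under CAN, 10 of 45 RAB activators were higher and 14 lower, and under OA 14 of 44 were higher and 12 lower. These shares, 22.2% and 31.1% under CAN and 31.8% and 27.3% under OA, lay near those of all genes, 27.5% and 34.1% under CAN and 28.1% and 28.8% under OA. RABGEF1, an activator of RAB5, was 3.48-fold higher under CAN and 5.94-fold higher under OA, with intensities of 244, 772 and 1731. TRAPPC6A, a subunit of the TRAPP complexes that act on RAB1, had 925, 181 and 89.4, 4.63-fold and 12.4-fold lower. TRAPPC9 was 3.90-fold and 5.61-fold lower. RIN3, another RAB5 activator, was 2.53-fold higher under CAN and 3.68-fold lower under OA. Among genes measured on both arrays, the list also held TRAPPC1, 3.70-fold lower under CAN, and TRAPPC4 and MON1A, 2.85-fold and 2.64-fold higher under OA. DENND1B, an activator of RAB35 named after its values were seen, was not well above background in control or under OA and had 996 under CAN, at least 31.3-fold above control. MON1B was 4.31-fold higher under CAN on its brighter probe, while its second probe gave -0.17 log2 units.

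Of 36 RAB GTPase-activating proteins, 7 were higher and 11 lower under CAN, and 10 were higher and 8 lower under OA. The shares of 19.4% and 30.6%, and of 27.8% and 22.2%, were at or below those of all genes. TBC1D10C was the highest under CAN at 6.35-fold, followed by TBC1D22B at 2.98-fold and TBC1D9 at 2.79-fold, whose other probe gave 0.26 log2 units. TBC1D8 was 4.14-fold lower under CAN and 2.61-fold lower under OA, and TBC1D12 and TBC1D14 were 2.83-fold and 2.73-fold lower under CAN. Under OA, RAB3GAP2, which belongs to the complex that inactivates RAB3 and activates RAB18, was 4.19-fold higher. TBC1D23 and TBC1D15 were 3.65-fold and 3.42-fold higher, and TBC1D9B and SGSM3 4.03-fold and 3.34-fold lower.

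Among 13 genes of RAB prenylation and membrane cycling, 5 were higher and 2 lower under CAN, and 2 were higher and 2 lower under OA. These were 38.5% and 15.4% under CAN, beside 27.5% and 34.1% of all genes, and 15.4% each way under OA, beside 28.1% and 28.8%. CHML, an escort protein that presents RABs for lipid modification, was 3.41-fold lower under CAN and 1.83-fold higher under OA. For CHM, the other escort protein, the probes disagreed in sign, from -1.48 to 1.96 under CAN and from -1.55 to 2.33 under OA. RABGGTA, a subunit of the enzyme that adds the lipid, was 2.01-fold higher under CAN. YIPF5 was 2.51-fold lower there on its brighter probe and higher on the other. YIPF1 and RABAC1 were 2.13-fold and 1.63-fold lower under OA.

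Of the RAB effectors, 15 of 45 were higher and 14 lower under CAN, and 13 of 46 were higher and 11 lower under OA. The shares of 33.3% and 31.1%, and of 28.3% and 23.9%, lay near those of all genes. PLEKHM1, which joins RAB7 to lysosome fusion, was 10.8-fold higher under CAN and 4.27-fold under OA on the probe used, but its 3 probes ranged from 0.28 to 3.55 and from -0.14 to 3.75 log2 units. RAB11FIP1, a RAB11 effector, was 7.18-fold and 5.29-fold higher on one probe and lower on the other. MICALL2, an effector of RAB13, was 5.64-fold higher under CAN and 3.87-fold higher under OA. GCC2, a golgin, was 4.86-fold higher under CAN and 8.84-fold higher under OA. APPL1, a RAB5 effector, and RAB11FIP3 were 4.77-fold and 4.32-fold lower under CAN and 2.33-fold and 2.08-fold lower under OA. MLPH, which ties RAB27A to a myosin, was 4.71-fold lower under CAN on its brighter probe. Its other probe gave 0.60 log2 units, past 1.5-fold in the opposite direction. SYTL2, a RAB27 effector, FYCO1, a RAB7 effector, and APPL2 were 3.91-fold, 3.90-fold and 3.46-fold lower under OA. Under CAN, SYTL2 was 2.91-fold lower, FYCO1 was within 1.5-fold and APPL2 was 2.11-fold higher.

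For comparison, the ARF and ARL family of small GTPases was counted in the same way. Of 25 ARF and ARL genes, 5 were higher and 8 lower under CAN, and of 26 under OA 12 were higher and 7 lower. The CAN shares were 20% and 32%, beside 27.5% and 34.1% of all genes. The OA shares were 46.2% and 26.9%, beside 28.1% and 28.8%. ARF6, which acts with RAB11 and RAB35 in recycling, was 21.1-fold lower under CAN and 15.2-fold lower under OA. The median difference under CAN was -0.11 for RAB and -0.29 for ARF and ARL genes, and under OA it was -0.10 and 0.13. These families were not tested against each other.

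**Figure D4:**
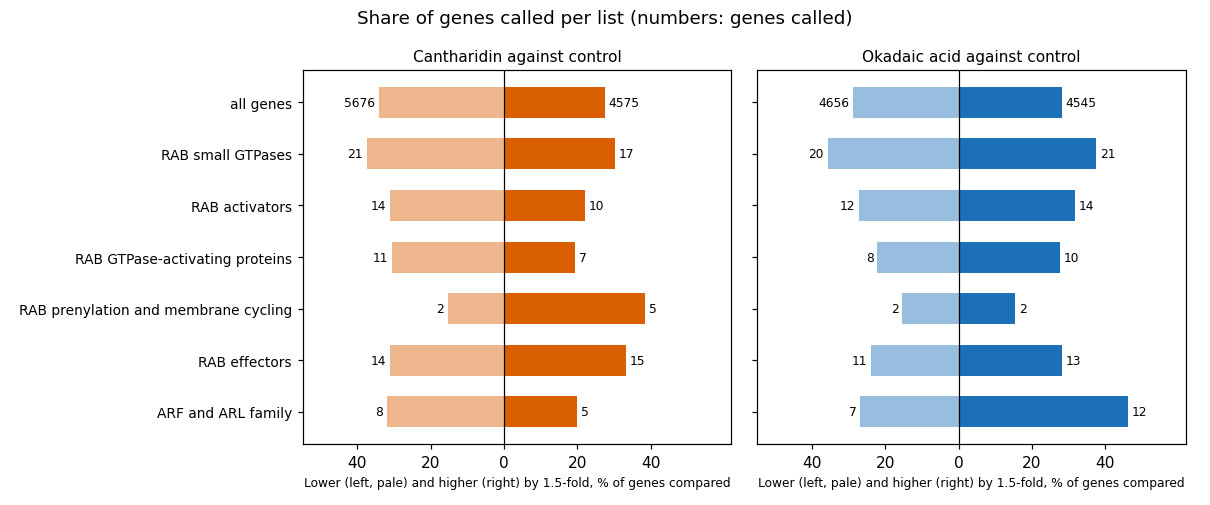
Share of genes compared that were at least 1.5-fold lower (left, pale) or higher (right) than control under CAN and OA, for all genes, the 56 RAB genes, 4 lists of RAB regulators and effectors and the ARF and ARL family. Numbers beside the bars count the genes; RAB genes were called 21 lower and 17 higher under CAN, beside 34.1% and 27.5% of all genes.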

How the data were processed

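Total RNA of 3 PANC-1 cultures (control, CAN, OA) was labelled with Cy3 and read on Agilent 1-colour human arrays. Groups came from the sample titles. The authors deposited processed intensity per spot from Feature Extraction 11.0.1.1, background-subtracted within each array per the file headers and flagged for outliers, saturation and detection. They also deposited normalized log2 values whose method is not given in the sources used here. Probe annotation was hg19.

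Log2 intensity was averaged over unflagged spots (34041 probes), minus the 75th percentile of its array. Accessions, without version, were named through RefSeq of GRCh38.p14 (25705 probes, 19699 genes). The probe with the highest mean log2 signal stood for a gene. Genes detected (well above background) on either array of a comparison were called at 1.5-fold. For a bound, the dim side was the lowest detected signal of its array, or the gene's own signal if that was higher. The number of arrays limits the precision. All files came from 1 slide and 1 scan, so position on the slide and group cannot be told apart.

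Members and lists were chosen with earlier results of these data known. Intensities were printed for members at least 2-fold changed the same way under both agents, past 1.5-fold in opposite directions, at least 4-fold changed under 1 agent or past 1.5-fold as a bound, and up to 3 genes per list, agent and direction were named. A list gene given for 1 agent can also differ from control under the other. TBC1D3 and TBC1D5 had no matched probe. Some listed genes are not reported here. Alternatives were normexp (offset 50, median spot and background intensity), median scaling, the 75th percentile over probes detected on every array, quantile normalization, no scaling, the deposited log2 table, other filters, a floor for dim signals, a 2-fold threshold and the median over probes. The counting was tested on simulated data. R 4.3.3, limma 3.58.1, Python 3.11.15, numpy 2.4.6, pandas 2.3.3 and matplotlib 3.10.9 were used.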

Additional observations from a re-analysis of the deposited data

How the results depend on the processing

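Of the RAB genes called, all 38 under CAN, all 41 under OA and all 30 between the agents kept their direction in each alternative that gave a value, and 31, 31 and 24 passed 1.5-fold in each of them. For a gene with 1 probe detected on all arrays, the filter, floor and probe-median alternatives return the main value. They are no separate check for such a gene. Median scaling, no scaling and the percentile over probes detected on every array shift all genes of a comparison by the same amount. Each such shift was smaller than 1.5-fold, so it could not turn the direction of a called gene. Kept direction is therefore no check under these settings, where only passing 1.5-fold could change. RAB calls ranged from 15 to 18 higher and 16 to 23 lower under CAN, from 14 to 22 higher and 12 to 21 lower under OA, and from 14 to 25 higher and 8 to 18 lower for OA against CAN. The 2-fold threshold gave 12 RAB genes lower under OA and 8 lower for OA against CAN, and no scaling also gave 8 for the latter. The RAB median without scaling was -0.25 under CAN, 0.16 under OA and 0.52 for OA against CAN, beside medians of all genes of -0.30, 0.26 and 0.52, since this setting shifts all genes. Under OA it was -0.22 with median scaling and -0.18 in the deposited table. For OA against CAN it was 0.042 with normexp, -0.025 with median scaling and 0.23 with no filter. In the lists, the 2-fold threshold left under CAN 3 GTPase-activating proteins higher and 6 lower, 3 prenylation genes higher and 6 effectors lower. Under OA it left 9 activators higher, 6 GTPase-activating proteins higher and 5 lower, 1 prenylation gene higher and 1 lower, and 7 ARF and ARL genes higher. Normexp gave 6 GTPase-activating proteins lower under CAN and 1 prenylation gene higher under OA. The median over probes gave 1 prenylation gene lower under CAN and 1 higher under OA, and no scaling 1 lower under OA. The cause of these shifts was not tested. No paired analysis was possible because each group has 1 array and the labels carry no replicate numbers. Spot noise was measured on 10 spots for 2 members, RAB5C and RAB27B.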

Other observations

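RAB-like genes lay outside the symbol rule and were looked up after the RAB values were known. RASEF, a larger RAB-related protein with EF-hand motifs also called RAB45, was not well above background in control (28.3) and had 404 under CAN and 517 under OA. This was at least 12.7-fold higher under CAN and at least 12.4-fold higher under OA. RABL2A, a RAB-like GTPase of cilia and sperm tails, had 2119, 10085 and 3331, 5.24-fold higher under CAN and 1.32-fold higher under OA. IFT27, a RAB-like subunit of the ciliary transport complex, was within 1.5-fold under both agents, as were RABL3 and RABL6. IFT22 was 1.54-fold lower under OA and 1.23-fold lower under CAN.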
